A study of Danio rerio with 4 samples.

Results

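The Notch receptors and the Delta and Jagged ligands of the zebrafish were followed through sorted olfactory sensory neurons (OSNs) as a reading of how much neurogenesis each sorted class still held. The members are a listed set of 10 of the 29029 genes counted: the 4 receptors notch1a, notch1b, notch2 and notch3, the 4 Delta ligands dla, dlb, dlc and dld, and the 2 Jagged ligands jag1b and jag2b. All 10 had reads and passed the filter on low counts. RNA was measured in 4 libraries from embryos at 48 hpf (hours post fertilization) of the Tubingen/TLF strain, 2 per class, called OMP and TRPC2. OMP cells carried the OMP:RFP transgene, in which an OMP promoter drives RFP and marks ciliated OSNs, and TRPC2 cells carried the TRPC2:Venus transgene, in which a TRPC2 promoter drives Venus and marks microvillous OSNs. Olfactory epithelia were dissected and dissociated with trypsin, and cells with RFP alone or Venus alone were taken by FACS, so each library pooled many cells. RNA was amplified by T7 transcription in 1 round (OMP) or 2 rounds (TRPC2), and the study's methods give fewer cells for the TRPC2 sorts, and fewer for TRPC2 replicate 2 than for TRPC2 replicate 1. Class, cell number and rounds of amplification therefore cannot be told apart, and the part of cell number in the differences between the TRPC2 libraries was not tested. Nothing in the sources used here says how the embryos were divided between the libraries of a class, so p-values describe how these libraries vary, and that variation may be technical in part.

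Notch signalling passes between cells that touch. A Delta or Jagged ligand on 1 cell binds a Notch receptor on its neighbour, the receptor is cut, and its inner part enters the nucleus, where it joins the DNA-binding protein Rbpj and turns on her and hey genes, which repress the genes that make neurons. Cells that begin to become neurons carry much Delta and keep their neighbours as progenitors, a process called lateral inhibition. Delta transcripts are therefore known as marks of newly committed neurons, whereas Notch receptors and her genes mark the progenitors around them. The same receptors and ligands also act in blood vessels, mural cells, sensory hair cells and the facial skeleton, and a pool of sorted cells can hold RNA from more than 1 of these.

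Counts over genes ranged from 49483362 to 84599818 per library. Levels are given in RPM, the deposited counts scaled to the size of each library, and the gene counts made up 56.0% to 75.9% of the totals used for scaling. Genes with a read numbered 25437 and 25542 in the OMP libraries but 17885 and 17991 in the TRPC2 libraries. The genes behind the transgenes served as a check of the labels. ompb, for olfactory marker protein, was above both TRPC2 libraries in both OMP libraries (185 and 218 against 0.24 and 6.95 RPM), and trpc2b, for the Trpc2 channel, was in the opposite order (2.80 and 3.82 against 13.5 and 24.2 RPM). The paralogue trpc2a went against the label in TRPC2 replicate 2, where it was at 0.21 RPM, below the OMP values of 1.44 and 1.56 RPM. TRPC2 replicate 1 had 11.4 RPM of trpc2a. The related gene ompa was higher in both OMP libraries, at 55.3 and 96.4 RPM. In TRPC2 ompa was at 17.3 RPM in replicate 1 and at 0.44 RPM in replicate 2. Of 9 ciliated OSN genes tested, 8 were higher in both OMP libraries, but gng8 was at 46.5 and 46.1 RPM in OMP against 566 and 169 RPM in TRPC2. Of 7 microvillous OSN genes, 3 were higher in both TRPC2 libraries. gnai2a went the other way, at 50.4 and 57.8 RPM in OMP against 17.85 and 11.98 RPM in TRPC2. Of all genes tested, 60.2% were higher in both OMP libraries and 7.44% in both TRPC2 libraries. Transcript lengths were not used here, so levels are compared between libraries for the same gene and not between genes, and shares of reads are uncorrected for length.

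The TRPC2 libraries did not resemble each other for these genes, and most of what follows turns on that. notch1a is a co-orthologue of mammalian Notch1 and a main receptor of the embryonic nervous system. It was at 47.6 and 34.2 RPM in OMP replicates 1 and 2, at 132 RPM in TRPC2 replicate 1 and at 11.97 RPM in TRPC2 replicate 2. TRPC2 replicate 1 thus lay above both OMP libraries and TRPC2 replicate 2 below both. The TRPC2 mean of 71.8 ± 84.6 RPM (SD, n = 2) had an error larger than itself, against 40.9 ± 9.44 RPM (SD, n = 2) in OMP. In these bulk libraries fewer cells of a type and less RNA per cell cannot be told apart. notch1b, the other Notch1 co-orthologue, was at 14.0 and 10.6 RPM in OMP, at 5.19 RPM in TRPC2 replicate 1 and at 0.040 RPM, or 3 reads, in TRPC2 replicate 2. The classes did not overlap, and the widest gap was to TRPC2 replicate 2.

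notch2 and notch3 differed less between the TRPC2 libraries. notch2, the orthologue of mammalian Notch2, was at 29.7 and 18.1 RPM in OMP against 13.0 and 7.64 RPM in TRPC2. notch3, which is known for radial glia and for the mural cells of vessels, was at 15.4 and 8.96 RPM in OMP against 4.84 and 2.89 RPM in TRPC2. For both genes the OMP libraries lay above the TRPC2 libraries and the libraries of a class differed by less than 2-fold. Of all receptor reads, notch1a made up 44.6% (95% Clopper-Pearson interval 43.7 to 45.6%) and 47.6% (46.5 to 48.7%) in OMP and 53.1% (50.8 to 55.4%) in TRPC2 replicate 2, but 85.1% (84.5 to 85.7%) in TRPC2 replicate 1. These intervals cover counting error only, since amplified reads are not independent molecules. Summed over the receptors the level was 107 and 71.9 RPM in OMP and 155 and 22.5 RPM in TRPC2.

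**Figure D1:**
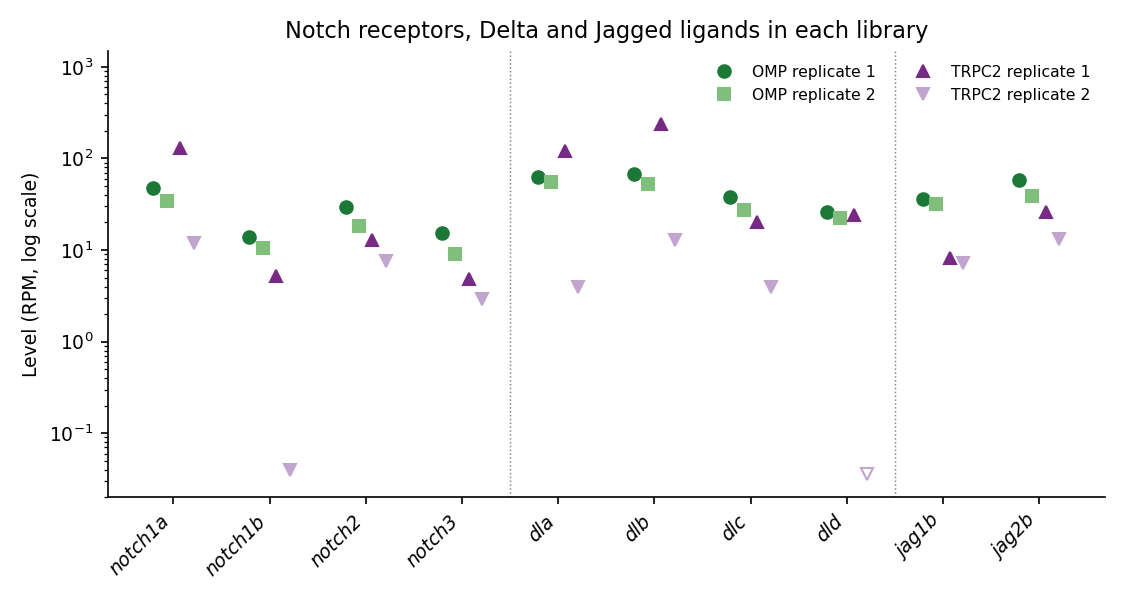
Level of each Notch receptor and ligand in RPM on a log axis, with 1 point per library and dotted lines between receptors, Delta ligands and Jagged ligands; the open point is a library with 0 reads, drawn at the level of 3 reads. The OMP points of a gene lie close together, whereas TRPC2 replicate 1 is the highest point for notch1a, dla and dlb and TRPC2 replicate 2 is the lowest point for all 10 genes.

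All 4 Delta ligands were more than 4-fold higher in TRPC2 replicate 1 than in TRPC2 replicate 2. dla, 1 of the zebrafish co-orthologues of mammalian Delta-like 1 and known for lateral inhibition in the neural plate, was at 62.4 and 54.9 RPM in OMP, at 121 RPM in TRPC2 replicate 1 and at 3.91 RPM in TRPC2 replicate 2. dlb, which marks early neurons in the zebrafish embryo, was at 67.5 and 52.5 RPM in OMP, at 239.8 RPM in TRPC2 replicate 1 and at 12.9 RPM in TRPC2 replicate 2. In both genes TRPC2 replicate 1 was the highest of the 4 libraries and TRPC2 replicate 2 the lowest. dld, a ligand of somite segmentation and of neurons, was at 26.3 and 22.2 RPM in OMP against 24.05 RPM in TRPC2 replicate 1, so these libraries were alike. It had 0 reads in TRPC2 replicate 2, where 3 reads correspond to 0.0356 RPM. dlc, the beamter gene of somite segmentation, was at 37.9 and 27.25 RPM in OMP against 20.03 and 3.99 RPM in TRPC2. For dlc the OMP libraries were above both TRPC2 libraries.

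Summed over the 4 Delta ligands, the level was 194 and 157 RPM in OMP, 405 RPM in TRPC2 replicate 1 and 20.8 RPM in TRPC2 replicate 2. The sum was 19.5-fold higher in the first TRPC2 library than in the second, and 1.24-fold higher in the first OMP library than in the second. Among the Delta reads, the share of dlb was closer within a class than that of the other Delta genes in TRPC2. It gave 34.8% (95% Clopper-Pearson interval 34.1 to 35.4%) and 33.5% (32.8 to 34.2%) of Delta reads in OMP. In TRPC2 it gave 59.3% (58.8 to 59.8%) and 62.0% (59.7 to 64.3%). The share of dla was 29.8% in TRPC2 replicate 1 and 18.8% in TRPC2 replicate 2, that of dlc 4.95% and 19.2%, and that of dld 5.94% and 0%. The dlb shares of the classes did not overlap, but an exact two-sided permutation test of 2 libraries against 2 cannot give a p below 0.333.

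The Jagged ligands were lower in both TRPC2 libraries and differed by less than 2-fold between them. jag1b, known in zebrafish for the dorsal facial skeleton and the inner ear, was at 35.8 and 32.15 RPM in OMP against 8.18 and 7.22 RPM in TRPC2. Its means were 34.0 ± 2.57 RPM (SD, n = 2) for OMP libraries and 7.70 ± 0.679 RPM (SD, n = 2) in TRPC2, which is 4.41-fold lower. The gap was larger than the spread within either class. In RPM, the log2 ratio of class means, OMP over TRPC2, had a median of 1.27 over all genes tested. Over the 10 members this median was 1.25. Class means below the level of 3 reads were set to that level. jag2b, the other Jagged ligand listed, was at 57.6 and 38.5 RPM in OMP against 26.1 and 13.2 RPM in TRPC2, also without overlap. The sum of both was 93.4 and 70.6 RPM in OMP and 34.3 and 20.45 RPM in TRPC2, so TRPC2 replicate 1, with the highest Delta level, had a Jagged level below both OMP libraries. Of the reads of the 6 listed ligands, Delta genes gave 67.5% (95% Clopper-Pearson interval 67.0 to 68.0%) and 69.0% (68.4 to 69.5%) in OMP. They gave 92.2% (91.9 to 92.4%) in TRPC2 replicate 1 and 50.4% (48.7 to 52.1%) in TRPC2 replicate 2. These shares leave out dll4 and jag1a, which had 1596 and 484 reads in TRPC2 replicate 2, beside 1752 for the listed Delta genes.

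The ratio between the libraries of a class was set beside that of all 21026 genes tested. In OMP, the members were 1.11-fold to 1.72-fold higher in replicate 1, all 10 in that direction, and 0 differed by more than 4-fold. Over all genes 1.76% were more than 4-fold higher in OMP replicate 1 and 2.28% in OMP replicate 2, and the median ratio was 1.02. Red blood cell genes, at 11488 and 116682 RPM, differ between these 2 libraries, and their part in the ratios was not tested. In TRPC2, 6 of the 10 members were more than 4-fold higher in replicate 1 and 0 in replicate 2, where over all genes tested these shares were 16.3% and 16.5%. The 6 were notch1a at 11.0-fold, dla at 30.9-fold, dlb at 18.6-fold, dlc at 5.02-fold, notch1b and dld. For notch1b the ratio of the deposited RPM, in which the lower value is rounded to 0.04, was 130. Its 95% counting interval, taken from the counts, was 49.6 to 710, since it rests on 3 reads. dld was at least 676-fold higher, computed against 3 reads in TRPC2 replicate 2. The other 4, notch2, notch3, jag1b and jag2b, were 1.13-fold to 1.98-fold higher in TRPC2 replicate 1. Over the 12854 genes with more than 3 reads in both TRPC2 libraries, 14.9% were more than 4-fold higher in replicate 1 and 12.9% in replicate 2, and of the 8 members among them these were 4 and 0. The pattern of notch1a, dla and dlb, with TRPC2 replicate 1 above both OMP libraries and TRPC2 replicate 2 below both, held for 3 of 10 members and for 10.7% of all genes. TRPC2 replicate 2 was below both OMP libraries for all 10 members and for 75.4% of all genes.

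**Figure D2:**
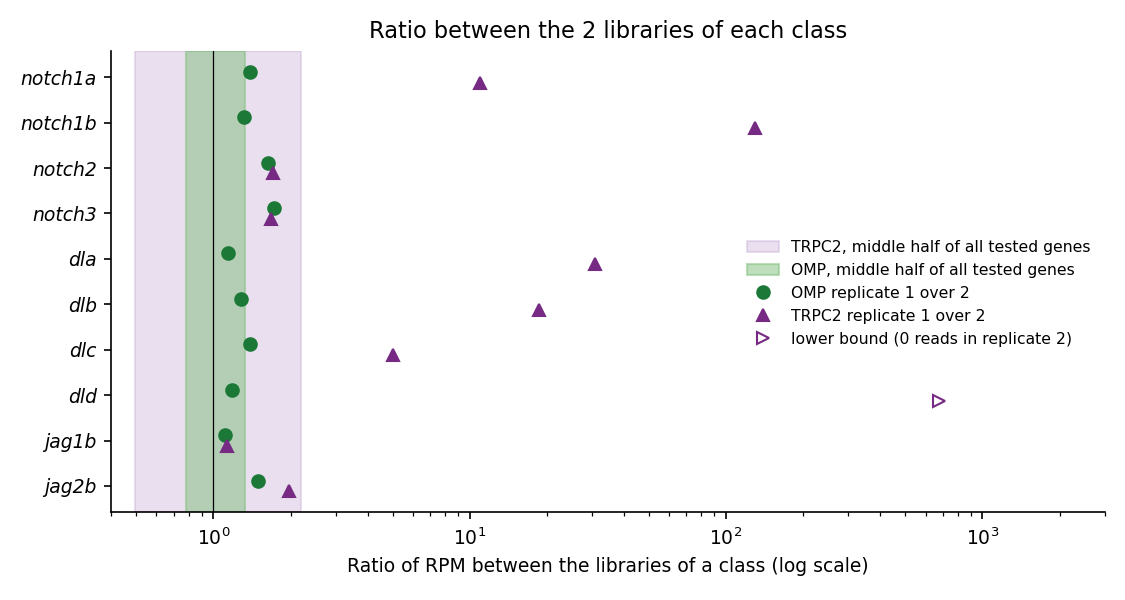
Ratio of the RPM of replicate 1 over replicate 2 on a log axis, for OMP (circles) and TRPC2 (triangles), with bands for the middle 50% of all tested genes in each class, in which levels under 3 reads were set to 3 reads; the open triangle is a lower bound. The OMP circles lie between 1.11 and 1.72, and 6 of the 10 TRPC2 values lie above 4, outside the TRPC2 band.

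To ask whether the classes differed, the counts were fitted with edgeR's quasi-likelihood test, and log2 ratios are OMP over TRPC2. No member passed an adjusted p of 0.05. Over all 21026 genes, 0% were called higher in OMP and 0% higher in TRPC2, with the adjusted p of the members from 0.116 to 0.958 by edgeR. At an unadjusted edgeR p below 0.05, jag1b was the 1 member of 10, higher in OMP, beside 23.3% of all genes higher in OMP and 7.18% higher in TRPC2. The fitted log2 ratio of jag1b was 1.36 (standard error 0.44, adjusted p = 0.116 by edgeR), where the median over all tested genes was 0.49. For 6 of 10 members the OMP pair lay wholly above the TRPC2 pair, and the opposite held for 0. Over all genes these shares were 60.2% and 7.44%, so the count is near the background and does not set the members apart. The median log2 fold change of the members was 0.47, with 5 above and 5 below the median of all genes. Of the genes tested, 3925 had at most 3 reads in each TRPC2 library, and no member was among these. Over the other 17101 the median was -0.0059, and the OMP pair lay wholly above the TRPC2 pair for 50.9% and wholly below it for 9.12%.

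The members with the largest negative fold changes were those high in TRPC2 replicate 1. dlb stood at -1.82 on the log2 scale (standard error 1.27, adjusted p = 0.420 by edgeR), notch1a at -1.56 (standard error 1.08, adjusted p = 0.419 by edgeR) and dla at -0.83 (standard error 1.39, adjusted p = 0.756 by edgeR). Each of these directions rested on TRPC2 replicate 1. Without it the log2 fold changes were 1.26 for dlb, 0.81 for notch1a and 2.94 for dla, all above 0. The median of all genes in that fit was 1.24, with 6 members above it and 4 below. Without TRPC2 replicate 2 the values of dlb, notch1a and dla were -2.74, -2.43 and -1.79, all below 0. The median of all genes was then 1.33, with 0 members above it and 10 below. Without TRPC2 replicate 1 edgeR called 6 of 10 members higher in OMP and 0 in TRPC2, beside 32.6% and 16.4% of all genes, and without TRPC2 replicate 2 it called 1 and 3, beside 34.9% and 15.8%. In such fits the lone TRPC2 library borrows its spread from the OMP pair, whereas the median SD of log2 levels within a class was 0.27 for OMP and 0.87 for TRPC2. dlc and dld, at 0.68 and 0.27, also changed sign, to -0.045 and -0.73, without TRPC2 replicate 2. jag1b kept its side with either TRPC2 library left out, at 1.27 and 1.31, close to the medians of 1.24 and 1.33 over all genes.

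**Figure D3:**
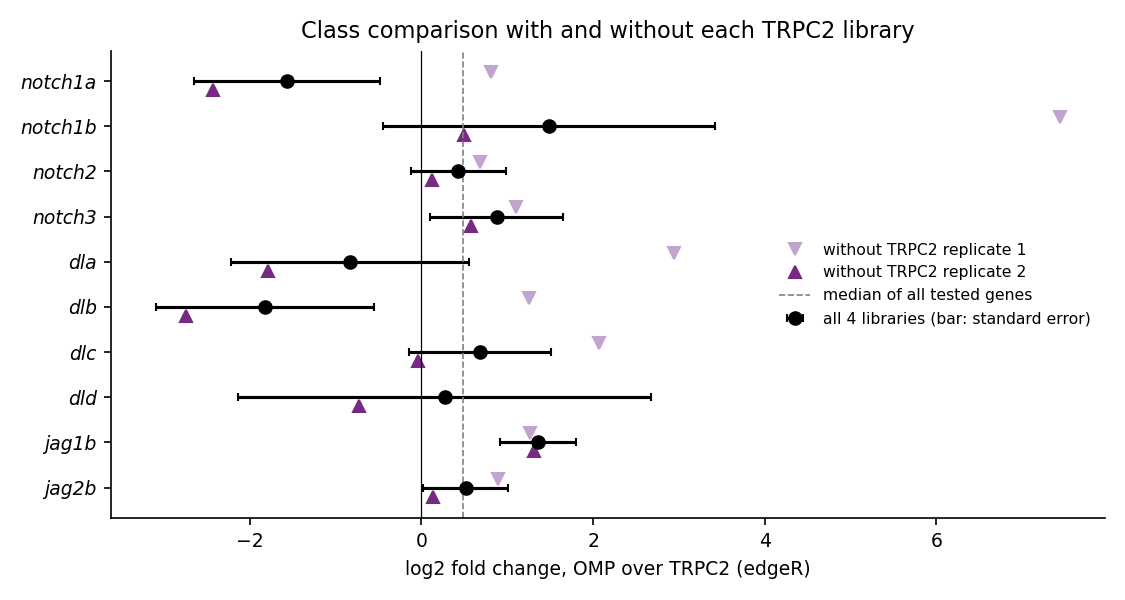
Log2 fold change of each member, OMP over TRPC2, by edgeR. Black points use all 4 libraries, with bars for standard errors, and triangles leave out TRPC2 replicate 1 or 2. The dashed line is the median of all tested genes in the fit with all 4 libraries. The medians of the fits without TRPC2 replicate 1 and without TRPC2 replicate 2, 1.24 and 1.33, are not drawn. The value of dld without TRPC2 replicate 1 is not drawn because the remaining TRPC2 library has 0 reads. notch1a, dla and dlb lie on opposite sides of 0 depending on which TRPC2 library is left out, and the 3 values of jag1b lie between 1.27 and 1.36.

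Other tests on the same libraries gave few calls among the members. limma on log2(RPM + 0.5) called 1, jag1b, where it called 23.5% of all genes higher in OMP and 0.785% higher in TRPC2. DESeq2 called 0 of the 10, where it called 15.7% of all genes higher in OMP and 2.37% higher in TRPC2. With the replicate number as a block edgeR called 0 of the 10, beside 1.56% of all genes higher in OMP and 1.27% higher in TRPC2. The log2 differences of notch1a, dla and dlb were above 0 in limma, at 0.010, 1.35 and 0.083, and that of dla also with the block, at 0.64. Their sign therefore depends on the test. The median over all genes also moved, from 0.49 in the main fit to 0.91 in limma and 1.19 with the block. notch1a and dlb lay below the median in all of these fits, and dla lay below it with the block but above it in limma.

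The rest of the pathway was taken from lists of ligands, ligand endocytosis, fringe enzymes, receptor cleavage, the nuclear complex, negative regulators, her and hey genes, proneural genes and progenitor genes. These held 117 genes in the files, of which 114 were tested and 0 passed an adjusted p of 0.05 with edgeR. The OMP pair lay wholly above the TRPC2 pair for 1 of 4 other ligands, 2 of 6 endocytosis genes, 4 of 5 fringe and glycosylation genes and 5 of 14 negative regulators, beside 60.2% of all genes. The opposite held for 1 of the endocytosis genes and 0 of the others. Among the 5 negative regulators, nrarpb and itchb had at most 3 reads in each TRPC2 library and passed the filter only through OMP. Without them the count was 3 of 12, beside 50.9% of the genes with more than 3 reads in a TRPC2 library. Among the other ligands, dll4, the Delta-like ligand of vessels and also of neural precursors, was at 21.4 and 17.9 RPM in OMP against 31.2 and 18.9 RPM in TRPC2, so the classes overlapped and the TRPC2 libraries were closer than for dla or dlb. jag1a was at 5.34 and 3.15 RPM in OMP against 0.12 and 5.74 RPM in TRPC2, with the TRPC2 libraries in the opposite order from the Delta genes. mib1, the mind bomb ubiquitin ligase that lets a ligand signal, was at 42.3 and 27.5 RPM in OMP against 14.4 and 8.90 RPM in TRPC2, without overlap. lfng, a fringe enzyme that adds sugars to Notch, was at 52.2 and 46.2 RPM in OMP against 62.6 and 16.9 RPM in TRPC2, a split between the TRPC2 libraries in the direction of notch1a.

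Of 10 tested genes of receptor cleavage, 5 were higher in both OMP libraries and 1 in both TRPC2 libraries, beside 60.2% and 7.44% of all genes. Their median log2 fold change was -0.51, against 0.49 over all genes and -0.0059 over those with more than 3 reads in a TRPC2 library. aph1b, a subunit of the gamma-secretase that releases the inner part of Notch, was at 74.7 and 76.6 RPM in OMP against 53.5 and 95.4 RPM in TRPC2. furinb, 1 of the furin proteases that cut the receptor as it matures, was the gene higher in both TRPC2 libraries, at 48.6 and 33.4 RPM against 22.8 and 22.45 RPM, and the log2 ratio fitted by edgeR was -1.63 (standard error 0.38, adjusted p = 0.072 by edgeR). In the nuclear complex 3 of 9 tested genes were higher in both OMP libraries and 0 in both TRPC2 libraries, beside the same 60.2% and 7.44%. In that list 2 of the 9 genes, rbpjb and kat2a, were more than 4-fold higher in TRPC2 replicate 1 and 0 in TRPC2 replicate 2. Over all genes these shares were 16.3% and 16.5%, so the count is near the background. rbpjb, 1 of the Rbpj genes through which Notch reaches DNA, was at 19.2 and 23.05 RPM in OMP against 39.4 and 6.43 RPM in TRPC2, so TRPC2 replicate 1 lay above both OMP libraries and TRPC2 replicate 2 below both, as for notch1a. The related gene rbpja was at 22.3 and 18.1 RPM in OMP against 9.86 and 14.0 RPM in TRPC2, in the opposite order between the TRPC2 libraries. Of the negative regulators, nrarpa, which is itself turned on by Notch, was at 151 and 120.0 RPM in OMP against 120.5 and 36.7 RPM in TRPC2.

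Most her and hey genes were lower in TRPC2 replicate 1 than in both OMP libraries. So were notch1b, notch2, notch3, dlc, jag1b and jag2b, whereas notch1a, dla and dlb were higher there and dld lay between the OMP libraries. Some her and hey genes are direct targets of Notch, but which of those listed respond to it in these cells was not tested. Of 21 tested, 19 were higher in both OMP libraries and 0 in both TRPC2 libraries, where 60.2% of all tested genes were higher in both OMP libraries. Of the 21, 6 had at most 3 reads in each TRPC2 library and could pass the filter only through OMP. Among the other 15, 13 were higher in both OMP libraries, beside 50.9% of the genes with more than 3 reads in a TRPC2 library. The 13 include her4.1, her4.2, her4.3, her4.4, her15.1 and her15.2, near-identical copies that may share reads. The counts are therefore not counts of independent genes. The median log2 fold change of these 15 was 1.77, against -0.0059 for those genes. By edgeR 0 of the 21 passed the adjusted threshold. An unadjusted p below 0.05 was given for 7, but 6 of these are the genes with almost no TRPC2 reads, whose direction the filter fixed, and hey1 is the 1 other. Between the TRPC2 libraries, 7 of the 21 were more than 4-fold higher in replicate 1 and 2 in replicate 2, beside 16.3% and 16.5% of all genes. All 4 her4 genes are among the 7, so the same limit holds.

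The her4 genes are the classic zebrafish readout of Notch in neural progenitors. her4.2 was at 65.0 and 39.3 RPM in OMP against 8.49 and 0.89 RPM in TRPC2. her4.1, at 22.9 and 12.1 RPM in OMP and 8.91 RPM in TRPC2 replicate 1, had 0 reads in TRPC2 replicate 2, as did her4.3 and her4.4. Over the 4 her4 genes the level was 104 and 62.6 RPM in OMP and 19.1 and 0.89 RPM in TRPC2, so the mean of OMP was 4.37-fold above TRPC2 replicate 1, the library in which the Delta sum was 2.31-fold above the mean of OMP. Between the TRPC2 libraries the her4 sum was 21.4-fold higher in replicate 1, beside 19.5-fold for the Delta sum. These genes are near-identical copies, as are her15.1 and her15.2, and may share reads. her15.1 was at 40.7 and 22.4 RPM in OMP against 7.81 and 6.08 RPM in TRPC2. hey1, a repressor of the hairy-related family, was at 39.0 and 43.3 RPM in OMP against 5.68 and 1.64 RPM in TRPC2, and the log2 ratio fitted by edgeR was 2.73 (standard error 0.74, adjusted p = 0.080 by edgeR). her6, a zebrafish counterpart of mammalian Hes1, was at 117 and 114 RPM in OMP against 6.41 and 32.05 RPM in TRPC2, with TRPC2 replicate 1 the lowest. Only hes6 and her13 overlapped between the classes among the 21. hes6, which in other vertebrates acts against Hes1 and promotes neuron formation, was at 64.7 and 52.4 RPM in OMP against 71.5 and 23.5 RPM in TRPC2. her13 was at 5.06 and 4.36 RPM in OMP, at 12.7 RPM in TRPC2 replicate 1 and at 0.02 RPM, or 2 reads, in TRPC2 replicate 2. In both genes TRPC2 replicate 1 was the highest library, the order seen for notch1a, dla and dlb.

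**Figure D4:**
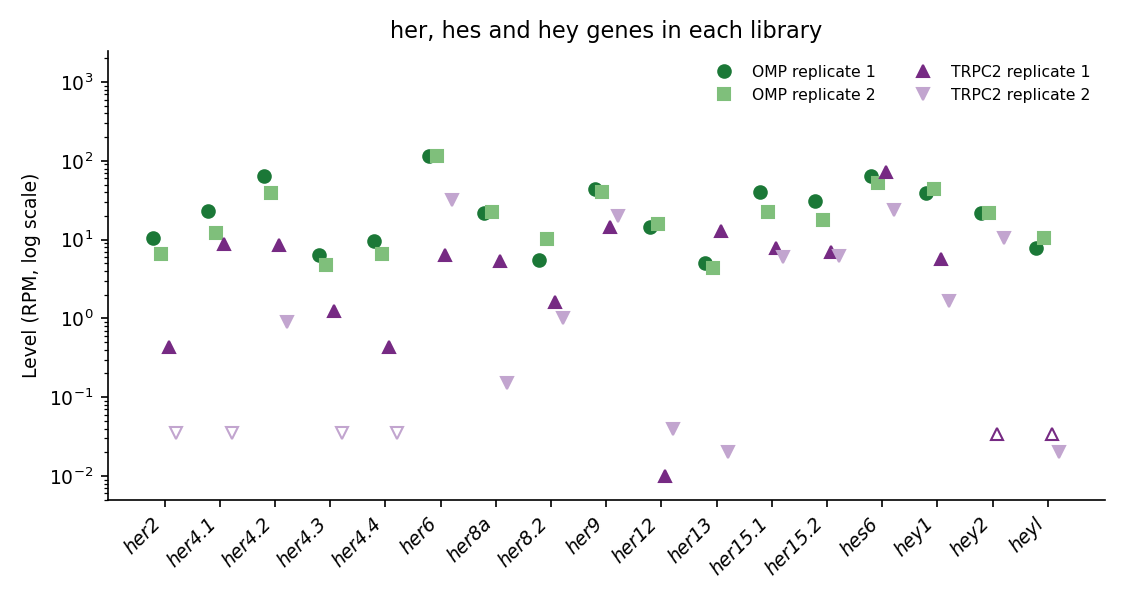
Level in RPM on a log axis of the 17 her, hes and hey genes above 4 RPM in both OMP libraries, with 1 point per library and open points at the level of 3 reads for libraries with 0 reads. For hes6 and her13 the TRPC2 replicate 1 triangle is the highest point. For the other 15 genes both OMP points lie above both TRPC2 points, as for 60.2% of all tested genes. The genes were drawn by their OMP level, so the figure cannot show how often her and hey genes are higher in OMP. her12 and heyl, among those drawn, had at most 3 reads in each TRPC2 library and passed the filter only through OMP.

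The proneural and neuronal genes did not share 1 order of the libraries. neurod1, a bHLH factor of differentiating neurons, was at 88.1 and 76.8 RPM in OMP against 265 and 157 RPM in TRPC2, and the log2 ratio fitted by edgeR was -2.13 (standard error 0.39, adjusted p = 0.072 by edgeR). Both TRPC2 libraries were above both OMP libraries, unlike the Delta genes. insm1a, a zinc finger factor of newborn neurons, was at 269 and 259 RPM in OMP against 222 and 93.6 RPM in TRPC2. ascl1a, a proneural gene that turns on Delta, was at 21.4 and 11.95 RPM in OMP against 20.3 and 3.85 RPM in TRPC2, again with the lowest value in TRPC2 replicate 2. neurog1, a proneural gene of cranial sensory neurons, was at 8.52 and 4.52 RPM in OMP against 2.33 and 0.25 RPM in TRPC2. ebf3a was at 397 and 287 RPM in OMP against 723 and 1006 RPM in TRPC2. elavl3 was at 255 and 216 RPM in OMP against 324 and 251 RPM in TRPC2. elavl4 was at 466 and 235 RPM in OMP against 188 and 269 RPM in TRPC2. sox11a was at 191 and 123 RPM in OMP against 334 and 183 RPM in TRPC2. TRPC2 replicate 2 was not the lowest library for ebf3a, elavl3, elavl4 or sox11a. Of 20 tested proneural and neuronal genes, 5 were higher in both OMP libraries and 2 in both TRPC2 libraries, beside 60.2% and 7.44% of all genes. In the same list 6 were more than 4-fold higher in TRPC2 replicate 1 and 3 in TRPC2 replicate 2, beside 16.3% and 16.5%.

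Many but not all genes of dividing progenitors split the TRPC2 libraries in the same direction as the Delta genes. Of 25 tested progenitor and cell cycle genes, 13 were more than 4-fold higher in TRPC2 replicate 1 and 2 in TRPC2 replicate 2. Over all genes these shares were 16.3% and 16.5%. The 2 were sox19b, at 1.09 and 6.61 RPM in TRPC2 replicates 1 and 2, and sox1b, at 3.38 and 24.5 RPM. mki67, a marker of cycling cells, was at 210.2 and 151 RPM in OMP against 228 and 29.5 RPM in TRPC2. rrm2, a subunit of the enzyme that makes nucleotides for DNA synthesis, was at 149.9 and 127 RPM in OMP against 319 and 28.9 RPM in TRPC2. pcna, the replication clamp, was at 359 and 287 RPM in OMP against 250.0 and 87.1 RPM in TRPC2, so the lowest library was TRPC2 replicate 2 in each of these genes. The replication gene mcm3 did not overlap between the classes, at 44.5 and 40.7 RPM in OMP and 3.21 and 0.93 RPM in TRPC2, and the log2 ratio fitted by edgeR was 3.60 (standard error 0.77, adjusted p = 0.072 by edgeR). pax6b, a factor of the placode and of neural progenitors, was at 65.8 and 44.95 RPM in OMP against 289 and 127 RPM in TRPC2, and the log2 ratio fitted by edgeR was -2.68 (standard error 0.52, adjusted p = 0.072 by edgeR). Summed over the list the level was 1875 and 1642 RPM in OMP and 1977 and 576 RPM in TRPC2. The part of cycling cells in the Notch values was not tested.

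Markers of other cells, among them cells in which Notch genes act, were set beside the share of 60.2% of all genes higher in both OMP libraries, or 50.9% of those with more than 3 reads in a TRPC2 library. Of 21 tested genes of vascular endothelium, 18 were higher in both OMP libraries, and the summed level was 94.0 to 101 RPM in OMP and 27.7 to 33.2 RPM in TRPC2. kdrl and egfl7, which define endothelium, had 0 reads in both TRPC2 libraries and were at 1.97 and 1.37 RPM and at 0.99 and 0.83 RPM in OMP. Of the 18, 6, kdrl and egfl7 among them, had at most 3 reads in each TRPC2 library and passed the filter only through OMP. Of the other 15 genes tested 12 were higher in both OMP libraries. ldb2a overlapped between the classes, at 12.5 and 5.82 RPM in OMP against 23.95 and 7.24 RPM in TRPC2. Of 11 genes of mural cells 9 were higher in both OMP libraries, with sums of 46.8 to 62.8 RPM in OMP and 5.63 to 11.5 RPM in TRPC2, and myh11a and tagln had 0 reads in TRPC2. Without the 4 mural genes of at most 3 reads in each TRPC2 library, among them myh11a and tagln, the count was 5 of 7. desmb overlapped between the classes, at 1.51 and 1.16 RPM in OMP against 1.21 and 4.32 RPM in TRPC2. Of 20 genes of radial glia and brain progenitors 11 were higher in both OMP libraries, with sums of 2627 to 3028 RPM and 735 to 797 RPM, and fabp7a, a lipid-binding protein of radial glia, was at 852 and 866 RPM in OMP against 56.4 and 36.7 RPM in TRPC2. The radial glia count of 11 of 20 was below 60.2%. Without the 1 gene of at most 3 reads in each TRPC2 library it was 10 of 19, near 50.9%. The radial glia sums did not overlap. The levels of glulb, of the same list, did overlap, at 359 and 477 RPM in OMP against 326 and 463 RPM in TRPC2. Of 12 genes of hair cells and neuromasts 7 were higher in both OMP libraries, or 2 of 7 without those of almost no TRPC2 reads. The hair cell sums overlapped, at 236 to 237 RPM in OMP and 169 to 264 RPM in TRPC2. pou4f3, which defines hair cells, had 0 reads in TRPC2 and so passed the filter only through OMP. Of 19 skin and periderm genes 16 were higher in both OMP libraries, with sums of 5219 to 8685 RPM and 716 to 1525 RPM. The summed levels of the vascular, mural, radial glia and skin lists, but not of the hair cell list, differed between the classes in the direction of notch1b, notch2, notch3, dlc, jag1b and jag2b, and of most her and hey genes. Their part in those values was not tested. Genes of red blood cells summed to 7.40 and 6.01 RPM in TRPC2, far below OMP. With these genes left out of the fit all 10 members kept the sign of their log2 ratio. Leaving them out does not change the counts of the members, so it cannot remove Notch RNA that such cells might bring. The part of red blood cells in the Notch values was not tested. Pigment and neural crest genes summed to 102 and 128 RPM in OMP against 1356 and 4680 RPM in TRPC2. The sum was highest in the TRPC2 library with the lowest Notch levels. Of the 18 tested, 7 were higher in both OMP libraries and 6 in both TRPC2 libraries, beside 60.2% and 7.44% of all genes. Among the 16 with more than 3 reads in a TRPC2 library these were 5 and 6, beside 50.9% and 9.12%. The part of the pigment and neural crest genes in the Notch values was not tested.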

How the data were processed

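Per the labels and the study's methods, reads were mapped to GRCz10 with STAR and counted per gene symbol with VERSE. Versions, annotation and strandedness were not given in the sources used here, so reads of overlapping or antisense genes cannot be told apart. The authors deposited whole-number counts, and RPM scaled by a library total larger than the sum over genes. Counts were compared with edgeR 4.0.16 in R 4.3.3 (glmQLFit and glmQLFTest, TMM, filterByExpr, a single class term), with Benjamini-Hochberg adjustment over all 21026 genes tested. The standard error is the log2 fold change divided by the square root of its F statistic. limma 3.58.1 and DESeq2 1.42.0 were alternatives, and the fits were tested on simulated data. Gene lists were matched by symbol. The members and lists were chosen with earlier results of these data known. The genes named are the members, the class markers, and per list up to 4 highest by mean RPM and up to 4 with the smallest p. rbpja, kat2a, ascl1a, neurog1, sox19b, sox1b, her4.1, her4.3, her4.4, her13, her15.1, her15.2 and hey1 fall outside it and were picked with their values in view. The read totals of 49483362 to 84599818 leave counting error small beside the spread between libraries, except for members near 0.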

Additional observations from a re-analysis of the deposited data

How the results depend on the processing

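At an adjusted p under 0.05, edgeR called 0 genes under both other scalings, unfiltered, under a minimum of 100 counts in 2 libraries, and without red blood cell genes. Over all genes DESeq2 called 4220 higher in OMP and 635 in TRPC2, limma on log2(RPM + 0.5) 4945 and 165, limma on log2(RPM + 0.1) 5350 and 175, and the replicate block 329 and 268. Leaving out 1 library gave 60 to 8023 higher in OMP and 50 to 3773 in TRPC2. Members called higher in OMP numbered 1 for either limma pseudocount and 0 to 6 when a library was dropped, while 0 to 3 were called higher in TRPC2. The 6 came without TRPC2 replicate 1 and the 3 without TRPC2 replicate 2. Of the pathway genes DESeq2 called 10 and 4, limma 14 and 0 (13 and 0 with the smaller pseudocount), the replicate block 4 and 3, and the fits with a library left out 0 to 46 and 0 to 28. Members with both OMP libraries above both TRPC2 libraries, 6, became 6 to 10 with a library left out, and those in the opposite direction, 0, became 0 to 3. Values that changed sign were those of notch1a (0.010 and 0.021 with limma, -2.43 to 0.81 with a library left out), dla (1.35 and 1.41 with limma, 0.64 with the replicate block, -1.79 to 2.94 with a library left out), dlb (0.083 and 0.096 with limma, -2.74 to 1.26 with a library left out), dlc (-0.045 to 2.07) and dld (-0.73 to 14.05, where the upper value depends on the prior count). The cause was not tested. Of the other alternatives for the members, 108 changed neither side nor call and 10 passed 0.05 in the same direction. For dll4, hey1, neurod1, pax6b, furinb and mcm3, 55 changed neither and 23 passed 0.05 in the same direction. The median log2 fold change of all genes moved from 0.49 to 0.36 under DESeq2 size factors and to 1.13 under library totals alone. Only the replicate numbers 1 and 2 are shared between classes, and deviations within a number had a correlation of 0.00869, too few pairs to tell a pairing. The counts by level did not change by more than 1.5 times with CPM over gene reads, with or without red blood cell genes. The ratios between TRPC2 libraries and the her and hey counts were examined with alternatives chosen after seeing the data, and 5 to 6 members stayed past 2-fold to 8-fold. With 2 libraries per class no outlying library can be identified by a test.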
